A study of Mus musculus with 6 samples.

Results

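A set of 8 transcription factor genes of the endocardial-mesenchymal transition and of heart valve formation, Snai1, Snai2, Twist1, Zeb1, Zeb2, Msx1, Msx2 and Prrx1, were examined in embryonic mouse ventricles after knockdown of Tbx5ua, the long non-coding RNA transcribed divergently from Tbx5. The members were taken as the rows whose gene symbol equals one of these names, which gave 8 of the 23284 genes in the deposited table. RNA-seq was performed on heart ventricles of 3 wild type (WT) and 3 Tbx5ua -/- (KD) C57BL/6 embryos at E9.5, both grown from B6J (C57BL/6J) ES cells by tetraploid complementation, in which the embryo proper comes from the injected ES cells. In KD embryos both alleles of Tbx5ua carried polyadenylation signals that stop its transcription early, and the phenotype work used a pair of KD ES cell lines, with the line behind each sequenced embryo not given in the sources used here. The deposited table holds 1 FPKM value (a count of fragments scaled to the length of the transcript and to the number of mapped fragments) for each gene in each group, pooled over the embryos. The pooled values give no spread between embryos, no read totals and no SD. The authors' test statistics and p-values were not used and no test was made. Each difference below is a difference between 2 pooled values.

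The endocardium is the endothelial lining of the heart. In the atrioventricular canal and the outflow tract, signals of the BMP, TGF-beta and Notch families from the myocardium and the endocardium make some endocardial cells loosen their junctions, enter the cardiac jelly and become the mesenchyme of the cushions, from which valves and septa form. The zinc finger repressors of the Snail and Zeb families bind E-boxes and silence junction genes such as cadherins, Twist1 is a basic helix-loop-helix factor of mesenchyme, Msx1 and Msx2 are homeodomain factors induced by BMP signals in the cushions and the adjoining myocardium, and Prrx1 is a homeodomain factor of mesenchyme. The chambers of the ventricle do not normally make cushions, and the labelled tissue is the ventricle.

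The direction of the difference divided the members evenly. Of the 8 genes, 4 were higher in KD (Snai2, Twist1, Zeb1 and Prrx1) and 4 were lower (Snai1, Zeb2, Msx1 and Msx2). Over all genes with at least 1 FPKM in either group 50.9% were higher in KD. The 4 higher members include Prrx1, which was under 1 FPKM in both groups, so the 2 sets are not alike. A gene was counted as past 1.5-fold when log2((KD + 0.1)/(WT + 0.1)) lay beyond that fold and its FPKM was at least 1 in either group, a floor that 7 members passed, each with at least 1 FPKM in both groups, and that Prrx1 did not. Snai2 and Twist1 were past 1.5-fold higher and Msx1 was past 1.5-fold lower. Among all 11606 genes over the floor 4.48% were past this fold higher in KD and 3.10% lower. The median log2 fold change of the 7 members was -0.23, against 0.0049 over all genes over the floor, and the median of its absolute size was 0.51, against 0.15. The median of the members rested on which of them were counted, since it was -0.00017 over all 8, with Prrx1, and -0.37 with a floor of 5 FPKM. These members were chosen with earlier results of the data known, so the counts describe the genes and test nothing. The direction of each member was the same with a pseudocount of 1 FPKM, with none and with the median of all genes subtracted. With a pseudocount of 1 FPKM, however, only Msx1 stayed past 1.5-fold, so that 0 members were higher and 1 lower. The value of Msx1 is itself uncertain, because the gene Msx1as has the same locus. No member reached a 2-fold difference.

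**Figure D1:**
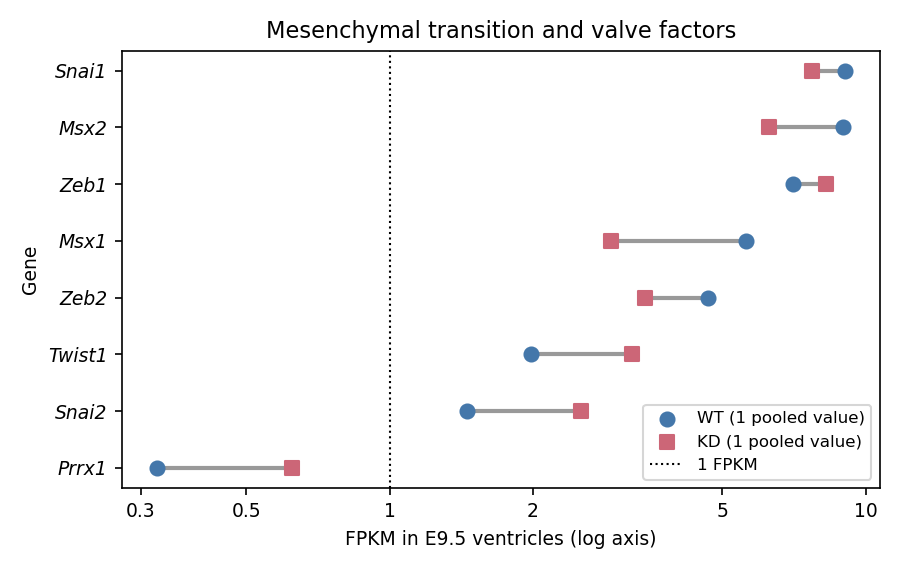
FPKM on a log axis for each of the 8 genes, ordered by WT level, with the WT value as a circle and the KD value as a square, 1 pooled value per group and no error. The 3 lowest genes in WT, Twist1 (1.98 FPKM), Snai2 (1.45 FPKM) and Prrx1 (0.324 FPKM), were higher in KD, while Msx1 moved down from 5.60 to 2.92 FPKM.

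The spread of fold changes in the table widens toward low levels, so the members were also read against genes of like level. Snai2, Twist1, Msx1 and Zeb2 have a mean of the 2 groups between 1 and 5 FPKM. In this class of 3662 genes 8.06% were past 1.5-fold higher in KD and 5.79% lower, and 3 of the 4 members were past it. The median absolute log2 fold change of the class was 0.24, above that of all genes, and the 4 members lay between 0.43 and 0.92 in absolute size. Snai1, Zeb1 and Msx2 have a mean between 5 and 20 FPKM. Of the 3825 genes in that class 2.48% were past the fold higher and 1.18% lower, and 0 of the 3 members were past it. The median absolute log2 fold change of this class was 0.15, and the 3 members lay between 0.23 and 0.51 in absolute size.

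**Figure D2:**
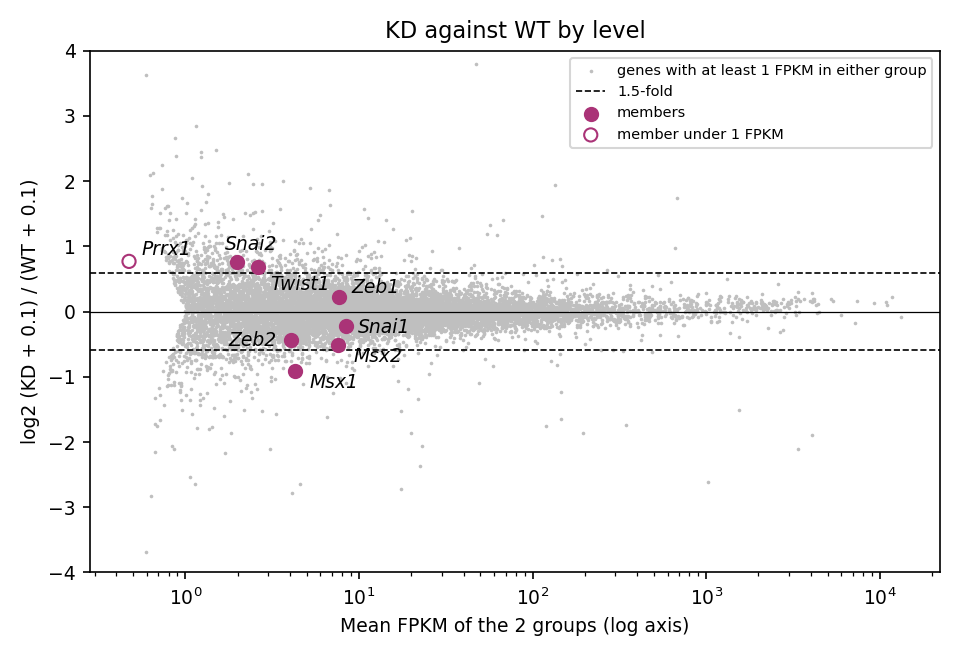
log2 (KD + 0.1)/(WT + 0.1) against the mean FPKM of the 2 groups on a log axis, with grey points for genes of at least 1 FPKM in either group, filled points for 7 members, an open point for Prrx1 and dashed lines at 1.5-fold. Snai2 and Twist1 lie above the upper line and Msx1 below the lower line, and 62 genes beyond a log2 of 4 in either direction are not drawn.

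Snai1, the Snail family member known for its part in mesoderm formation and for repression of E-cadherin, was the highest of the 8 in WT. Its level was 9.06 FPKM in WT against 7.73 in KD, a log2 fold change of -0.23. Snai2 (Slug), which acts in cushion endocardium and neural crest, had 1.45 FPKM in WT against 2.52 in KD, a log2 fold change of 0.76. The pooled values of the paralogues thus lay in opposite directions, and their sum was nearly level, at 10.5 FPKM in WT against 10.2 in KD. Within that sum the share of Snai1 was 86.2% in WT and 75.4% in KD, and Snai1 exceeded Snai2 by 6.25 times in WT and 3.07 times in KD. Snai1 lies on chromosome 2 from 167538227 to 167542811 on the plus strand and Snai2 on chromosome 16 from 14705859 to 14709382 on the plus strand, each with 3 exons in its longest coding transcript in GENCODE M21. No other row of the table overlaps either gene.

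Zeb1 and Zeb2 are large zinc finger and homeodomain repressors that, like the Snail proteins, act on E-boxes of junction genes. Zeb1 was at 7.04 FPKM in WT against 8.25 in KD, a log2 fold change of 0.23, which made it the highest of the 8 in KD. Zeb2 (Sip1), a partner of Smad proteins, was at 4.66 FPKM in WT against 3.43 in KD, a log2 fold change of -0.43. The sum of the paralogues was level, 11.7 FPKM in WT against 11.7 in KD, and the share of Zeb1 was 60.2% in WT and 70.6% in KD. Snai1 and Zeb1 each differed by only 1.17-fold between the groups. Without a spread between embryos, no pattern across the Snail and Zeb pairs can be read from these values, and none was tested. GENCODE M21 places Zeb1 on chromosome 18 from 5591860 to 5775467 on the plus strand, while its locus in the table starts upstream of that, at 5491501. Zeb2 lies on chromosome 2 from 44983634 to 45114084 on the minus strand. Rows that overlap these genes were at most 0.439 FPKM (Gm13476, within Zeb2, in WT), so little signal was placed on them. GENCODE M21 also places antisense genes over Zeb1, Zeb2 and Prrx1, whose reads cannot be told apart without strand.

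Msx1 and Msx2 were both lower in KD. Msx1 had 5.60 FPKM in WT against 2.92 in KD, a log2 fold change of -0.92, the largest in absolute size among the members over the floor. Msx2 had 8.98 FPKM in WT against 6.26 in KD, a log2 fold change of -0.51, short of 1.5-fold. Of the pairs made of members, this was the one whose sum differed, with 14.6 FPKM in WT against 9.18 in KD, a log2 fold change of -0.66. Msx2 exceeded Msx1 by 1.60 times in WT and 2.14 times in KD. Msx1 lies on chromosome 5 from 37820491 to 37824585 and Msx2 on chromosome 13 from 53466881 to 53472780, both on the minus strand and with 2 exons. In the table Msx1 has the same locus as Msx1as, an antisense gene by its name, which was at 7.99 FPKM in WT against 5.34 in KD, a log2 fold change of -0.57. The strand of Msx1as and the extent to which the transcripts overlap were not given there. Smart-Seq2 libraries do not mark the strand, so reads of Msx1 and Msx1as cannot be told apart where they overlap, and the value of Msx1 is uncertain for that reason. The values of the overlapping pair were both lower in KD.

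Twist1 was at 1.98 FPKM in WT against 3.23 in KD, a log2 fold change of 0.68. Its paralogue Twist2, which is not a member, was at 2.46 FPKM in WT against 3.52 in KD, a log2 fold change of 0.50, so that this pair had 4.44 FPKM in WT against 6.75 in KD together. Prrx1 was at 0.324 FPKM in WT against 0.623 in KD, a log2 fold change of 0.77 on the log2(FPKM + 0.1) scale, which understates the ratio of so low a gene and drops to 0.29 with a pseudocount of 1 FPKM. Its level exceeded that of 44.9% of all genes in WT and 48.3% in KD. The related gene Prrx2 was 83.0 times higher than Prrx1 in WT and 50.4 times higher in KD, at 26.9 FPKM in WT against 31.4 in KD. The ventricle libraries therefore held far more Prrx2 than Prrx1 transcript per length in either group. Twist1 lies on chromosome 12 from 33957671 to 33959831 on the plus strand, with 2 exons. Prrx1 lies on chromosome 1 from 163245119 to 163313650 on the minus strand, with 3 exons in its longest coding transcript.

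**Figure D3:**
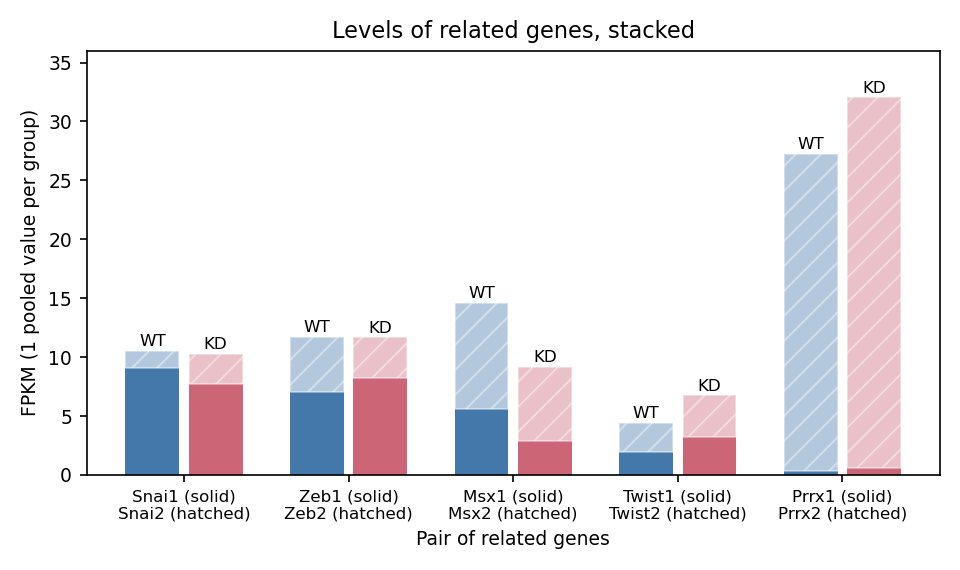
Stacked FPKM of 5 pairs of related genes in WT and KD, the first gene of each pair solid and the second hatched, 1 pooled value per group and no error. The Snail and Zeb sums are level between the groups, the Msx sum is lower in KD (14.6 against 9.18 FPKM), the Twist sum is higher in KD (4.44 against 6.75 FPKM), and Prrx2 makes up nearly all of the last pair.

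The order of the levels also differed between the groups. In WT it ran Snai1, Msx2, Zeb1, Msx1, Zeb2, Twist1, Snai2 and Prrx1, and in KD Zeb1, Snai1, Msx2, Zeb2, Twist1, Msx1, Snai2 and Prrx1. Without a spread between embryos it cannot be said which neighbours in these orders differ, such as Snai1 at 9.06 FPKM and Msx2 at 8.98 FPKM in WT. The highest member exceeded the lowest by 28.0 times in WT and by 13.2 times in KD. The lowest was Prrx1 in both groups, which was under the floor of 1 FPKM, so these ratios rest on a low value. The 8 genes summed to 39.1 FPKM in WT against 35.0 in KD.

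Promoter sequences are shown for Msx1 and Msx2, which were both lower, for Twist1, which was past the fold, and for Snai1, the highest member in WT, because Snail, Zeb and Twist proteins bind E-boxes and Msx and Prrx proteins bind TAAT cores. The windows are the 250 bases before the RefSeq start (build GRCm38.p6), which matched 6 of the 8 members, all but Snai2 and Zeb1. Capitals mark the E-box CAGGTG or its reverse complement CACCTG, and the homeodomain core TAATTA or its variant TAATTG with the reverse complement CAATTA, searched on both strands. The windows are Snai1 at chr2:167537945-167538194 on the plus strand, Twist1 at chr12:33957421-33957670 on the plus strand, Msx1 at chr5:37824586-37824835 on the minus strand and Msx2 at chr13:53472781-53473030 on the minus strand.
Snai1: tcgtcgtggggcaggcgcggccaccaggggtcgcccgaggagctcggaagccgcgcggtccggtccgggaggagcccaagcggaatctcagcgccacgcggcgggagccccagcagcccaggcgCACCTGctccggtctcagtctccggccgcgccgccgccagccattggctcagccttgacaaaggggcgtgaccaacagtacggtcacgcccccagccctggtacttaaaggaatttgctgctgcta
Twist1: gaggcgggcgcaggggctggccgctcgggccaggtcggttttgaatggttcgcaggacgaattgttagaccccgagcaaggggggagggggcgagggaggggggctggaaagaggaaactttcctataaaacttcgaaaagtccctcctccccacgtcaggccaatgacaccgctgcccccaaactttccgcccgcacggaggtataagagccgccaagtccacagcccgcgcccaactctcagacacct
Msx1: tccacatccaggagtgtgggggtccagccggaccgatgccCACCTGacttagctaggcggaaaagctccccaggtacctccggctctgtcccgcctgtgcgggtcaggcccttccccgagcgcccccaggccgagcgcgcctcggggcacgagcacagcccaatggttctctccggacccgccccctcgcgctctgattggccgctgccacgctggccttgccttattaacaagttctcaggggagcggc
Msx2: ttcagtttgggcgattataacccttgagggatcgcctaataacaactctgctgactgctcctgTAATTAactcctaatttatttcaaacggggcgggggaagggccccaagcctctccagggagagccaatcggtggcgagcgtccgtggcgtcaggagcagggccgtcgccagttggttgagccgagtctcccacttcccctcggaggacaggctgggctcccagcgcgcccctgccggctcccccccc
The E-box letters stood once in the Snai1 window, with their first base 126 bases before the start, and once in the Msx1 window, 210 bases before the start. They stood in 17.2% of 32817 windows of the same length over all RefSeq promoters. A homeodomain core stood once in the Msx2 window, 187 bases before the start, once in the Prrx1 window, 173 bases before it, and once in 1 of the 4 Zeb2 windows, against 11.3% of all windows. The Twist1 window held none of these letters. A match describes letters only and shows no binding.

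The genes around the members in the pathway were read from 6 lists of 90 genes, of which 75 were over the floor of 1 FPKM. Of these 7 were past 1.5-fold higher in KD and 2 lower, with a median log2 fold change of 0.0093, beside the 4.48% and 3.10% of all genes. Of 7 epicardial markers 5 were past 1.5-fold higher in KD alongside them, with a sum over all 7 of 47.3 FPKM in WT against 96.8 in KD, and Tcf21 stands in both sets. The lists were composed with earlier results known, and the counts are descriptions.

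Among 14 ligands of cushion induction 11 were over the floor, and 1 was past 1.5-fold, Bmp4, which was lower in KD. Of the 11, 7 had a lower value in KD and 4 a higher one, with a median log2 fold change of -0.04. Bmp4, a BMP ligand under which Msx genes are known to be induced, was at 6.52 FPKM in WT against 2.96 in KD. Bmp2, the BMP ligand of the atrioventricular canal, was at 5.18 FPKM in WT against 6.34 in KD. Bmp7, the highest of the list, had 77.4 FPKM in WT against 75.2 in KD, and Bmp5 had 15.5 FPKM in WT against 11.6 in KD. Tgfb2, the TGF-beta ligand of cushion formation, was at 14.0 FPKM in WT against 13.8 in KD. Whether the values of Bmp4 and of the Msx genes are linked was not tested. Of 20 receptors and mediators 19 were over the floor and 0 were past 1.5-fold, with log2 fold changes from -0.46 to 0.25. Eng, a TGF-beta co-receptor of endothelium, was at 66.4 FPKM in WT against 63.5 in KD, and Ctnnb1, which encodes beta-catenin, was at 95.6 FPKM in WT against 103 in KD. Erbb2 had 17.2 FPKM in WT against 15.4 in KD, and Smad4, the common Smad, had 14.6 FPKM in WT against 11.4 in KD.

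Of 9 junction genes, which include known targets of Snail and Zeb repression, 5 were over the floor. Cldn5, a claudin of endothelial tight junctions, was past 1.5-fold higher in KD, at 3.07 FPKM in WT against 7.51 in KD. The other 4 over the floor were near level. Esam had 25.3 FPKM in WT against 24.6 in KD, Pecam1 had 24.8 FPKM in WT against 25.6 in KD, Tjp1 had 11.2 FPKM in WT against 10.8 in KD, and Cdh5, which encodes VE-cadherin, had 10.5 FPKM in WT against 9.74 in KD. Cdh1, which encodes E-cadherin and is the classic Snail target, was at 0.0051 FPKM in WT against 0.020 in KD, so it was close to absent from either group.

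Among 18 mesenchymal and matrix genes 17 were over the floor, of which 3 were past 1.5-fold higher in KD and 1 lower. Pdgfra, the PDGF receptor of mesenchyme, was at 0.969 FPKM in WT against 2.78 in KD and passed the floor only through KD. Col1a1, a fibrillar collagen chain, was at 1.76 FPKM in WT against 4.64 in KD, and Cdh11, a mesenchymal cadherin, was at 7.37 FPKM in WT against 12.9 in KD. Tagln, an actin-binding protein of smooth muscle and early cardiomyocytes, was lower, at 400.3 FPKM in WT against 263 in KD. Of the 4 most abundant genes of the list the other 3 were short of 1.5-fold, with Acta2 at 3045 FPKM in WT against 2512 in KD, Vim at 572 FPKM in WT against 657 in KD, and Sparc at 188 FPKM in WT against 225 in KD. Of the 17 genes, 9 had a higher value in KD and 8 a lower one. The cushion matrix gene Vcan, among the lower ones, was at 39.1 FPKM in WT against 32.3 in KD. The genes past 1.5-fold higher were thus a few of low to middle level, while the median log2 fold change of the list was 0.06.

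Of 17 other cushion and valve transcription factors 15 were over the floor, and 3 were past 1.5-fold, all higher in KD. Sox9, a factor of cushion mesenchyme, was at 8.95 FPKM in WT against 16.0 in KD, Hey1, a Notch target, was at 13.3 FPKM in WT against 23.1 in KD, and Tcf21, a factor of epicardial and mesenchymal cells, was at 11.9 FPKM in WT against 25.5 in KD. The abundant ones were Tbx20 with 53.3 FPKM in WT against 44.8 in KD, Gata4 with 45.1 FPKM in WT against 52.9 in KD, and Hey2 with 31.2 FPKM in WT against 34.0 in KD. Foxc2 had 17.8 FPKM in WT against 25.1 in KD. Of 12 relatives and partners of the members 8 were over the floor and 0 past 1.5-fold. These include the co-repressor genes Ctbp1, at 41.0 FPKM in WT against 39.4 in KD, and Ctbp2, at 12.4 FPKM in WT against 12.1 in KD, and Tcf3, which encodes an E-protein partner of Twist1, at 17.6 FPKM in WT against 20.5 in KD.

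**Figure D4:**
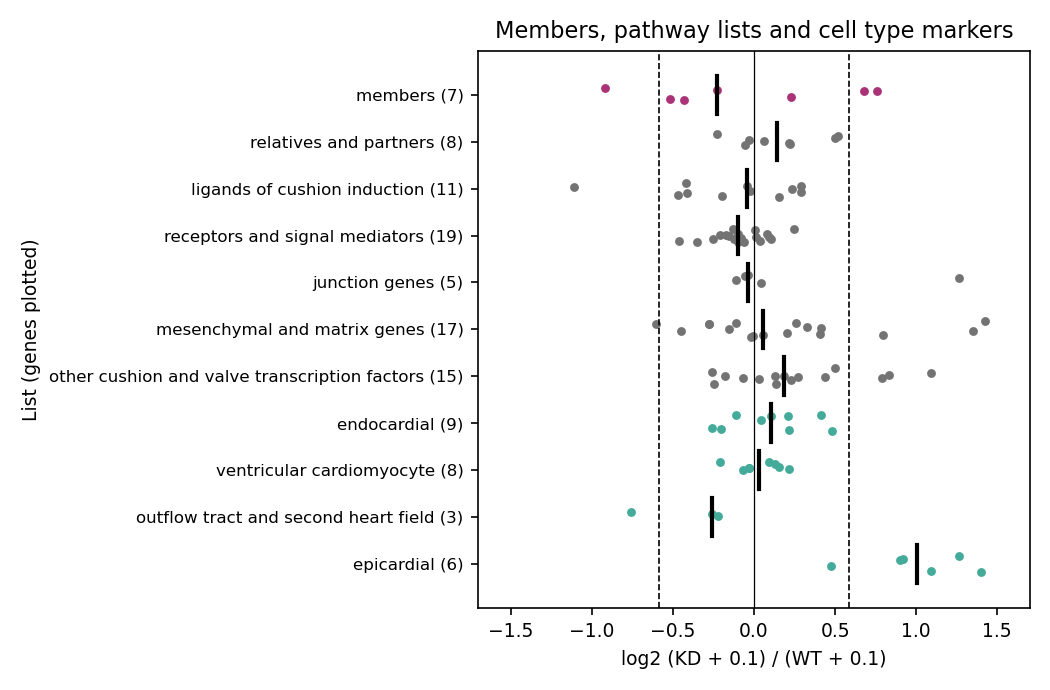
log2 (KD + 0.1)/(WT + 0.1) of each gene over the floor of 1 FPKM, in 1 line per list, with the median as a black bar, dashed lines at 1.5-fold and the number of genes plotted in brackets. The 7 members spread from -0.92 to 0.76, the 19 receptors and mediators stay between -0.46 and 0.25, and the 6 epicardial markers all lie above 0.

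The tissue label was checked against marker lists. All 8 ventricular cardiomyocyte markers, led by Myl2, Myl3, Tnni1 and Tnnt2, were over the floor, with a summed level of 20448 FPKM in WT against 22603 in KD, and 0 were past 1.5-fold. The 9 endocardial markers, from the cells that can undergo the transition, summed to 284 FPKM in WT against 349 in KD, with 0 past 1.5-fold, led by Plvap at 129 FPKM in WT against 179 in KD and Emcn at 43.1 FPKM in WT against 57.4 in KD, followed by Pecam1 and Tie1. The KD value was above that of WT for 6 of the 9 and below it for 3, which were Nfatc1 (log2 fold change -0.26), Tek (-0.20) and Cdh5 (-0.11). Of the 3 atrioventricular canal markers (Tbx2, Tbx3 and Bmp2) 0 were past 1.5-fold, and their sum was 9.83 FPKM in WT against 10.5 in KD. In these bulk samples fewer cells of a type and less RNA per cell cannot be told apart.

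Markers of other cells differed alongside the members. Beside the 4 members with higher values in KD (Snai2, Twist1, Zeb1 and, under the floor, Prrx1), 6 of 7 epicardial markers were over the floor and 5 of them past 1.5-fold higher in KD, with none at 0 and a summed level of 47.3 FPKM in WT against 96.8 in KD. They were Tbx18 (3.46 FPKM in WT against 6.56 in KD), Tcf21, Upk3b (7.80 FPKM in WT against 20.7 in KD), Upk1b (9.17 FPKM in WT against 22.1 in KD) and Aldh1a2 (0.872 FPKM in WT against 1.74 in KD), which passed the floor only through KD. The remaining gene over the floor, Wt1, had 13.8 FPKM in WT against 19.2 in KD. The part of the epicardial markers in the values of these members, and in those of the higher pathway genes Pdgfra, Col1a1, Cdh11, Sox9, Hey1 and Cldn5, was not tested. Tcf21, also a higher pathway gene, is itself one of the epicardial markers. Of 5 atrial markers 4 were over the floor and 3 past 1.5-fold higher, Nr2f2 (2.01 FPKM in WT against 4.15 in KD), Nr2f1 (0.552 FPKM in WT against 1.07 in KD) and Vsnl1 (0.555 FPKM in WT against 1.14 in KD), the last pair passing the floor only through KD. Beside the epicardial and atrial counts, 4.48% of all genes over the floor were past 1.5-fold higher in KD. Among those with a mean between 1 and 5 FPKM it was 8.06%. Genes that pass the floor only through KD can count only as higher, and the lists were composed with earlier results known. The most abundant of the list, Stard10, was near level, at 6.58 FPKM in WT against 6.95 in KD. Sln was listed at 0, the sum of the list was 9.70 FPKM in WT against 13.3 in KD, and the part of these genes in the members' values was not tested.

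Beside the 4 members with lower values in KD (Snai1, Zeb2, Msx1 and Msx2), 3 of 5 outflow tract and second heart field markers were over the floor, and Fgf8 was past 1.5-fold lower in KD, at 2.45 FPKM in WT against 1.41 in KD. Among all genes over the floor 3.10% were past this fold lower in KD. Sema3c, the most abundant of the list, had 5.38 FPKM in WT against 4.47 in KD, Fgf10 had 1.97 FPKM in WT against 1.67 in KD, and Rgs5 was under the floor. The list summed to 11.0 FPKM in WT against 8.34 in KD, and its part in the values of these members was not tested. Neural crest, pharyngeal, limb and body wall cells also express Twist, Msx and Prrx genes. Of the 7 neural crest and pharyngeal markers only Ednra, which heart cells express too, was over the floor, at 14.5 FPKM in WT against 14.8 in KD, Sox10, Tfap2a and Dlx5 were under 1 FPKM, Foxd3 and Dlx2 were listed at 0, and the list summed to 15.0 FPKM in WT against 15.1 in KD. All 6 limb and body wall markers, the highest being Shox2, Alx1, Tbx4 and Alx4, were under the floor, with a sum of 0.893 FPKM in WT against 1.03 in KD. The 6 erythroid markers, led by Hba-x, Hbb-y, Hbb-bh1 and Alas2, had 0 past 1.5-fold and summed to 11441 FPKM in WT against 11522 in KD, and the 5 hepatic and yolk sac markers were all under the floor, with Ttr, Apoa1 and Afp above 0 and Alb listed at 0, and with sums of 0.607 FPKM in WT against 1.37 in KD.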

How the data were processed

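RNA-seq of ventricles from 3 WT and 3 KD embryos at E9.5 was made from 10 ng of total RNA by Smart-Seq2, with 12 cycles of preamplification and 9 of enrichment PCR, and sequenced single-end. The authors deposited 1 Cuffdiff table with 1 FPKM value per gene for each group, pooled over its embryos. The submitters' processing notes name TopHat, Bowtie2, Cuffdiff and build mm10, with no versions. The KD column is named KO in the table. The table also holds the authors' fold changes, test statistics and p-values, which were not used. Single embryos have no columns, and 0 columns with values per sample went unused. Depth is unknown, and intervals that need it are not given. Of 23284 genes, 2 listed as having too many reads were left out.

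From the FPKM values log2((KD + 0.1)/(WT + 0.1)) was computed, and genes with at least 1 FPKM in either group were counted as past 1.5-fold or not. Levels are compared between genes only as FPKM, which is scaled to transcript length. All 8 members, every list gene past 1.5-fold and up to the 4 most abundant genes of each list were named. The members and lists were chosen with earlier results of these data known. Alternatives were pseudocounts of 1 and 0, folds of 1.25 and 2, floors of 0 and 5 FPKM and subtraction of the median of all genes. Table starts had 1 added, which matched 6292 GENCODE M21 gene starts against 682 without. Scripts were tested on simulated data. Python 3.11.15, NumPy 2.4.6, pandas 2.3.3 and Matplotlib 3.10.9 were used.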

Additional observations from a re-analysis of the deposited data

How the results depend on the processing

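No paired analysis was possible because each group has only a pooled value, and fits without each replicate were not run for the same reason. The direction of each of the 8 members was the same in all 24 recomputed values, with a pseudocount of 1 FPKM, with none and with the median of all genes subtracted. The number of members past 1.5-fold, 3 as reported, was 1 with a pseudocount of 1 FPKM and 1 with a floor of 5 FPKM, Msx1 in each. With the lower of the alternative folds it was 5, of which 2 were higher (Snai2 and Twist1) and 3 lower (Zeb2, Msx1 and Msx2), so that the balance of 2 higher and 1 lower turned. At a fold of 2 it was 0, and with no floor it was 4, 3 higher with Prrx1 and 1 lower. The share of all genes was computed only at 1.5-fold with the floor of 1 FPKM. Counts at other settings, and the turned balance, therefore describe the listed genes alone and cannot be set against all genes. The median log2 fold change of the members, -0.23 as reported, was -0.21 with a pseudocount of 1 FPKM, -0.00017 with no floor, which adds Prrx1, and -0.37 with a floor of 5 FPKM, which leaves out Snai2 and Twist1 as well as Zeb2. The number of pathway genes past the fold, 9 as reported, was 22 with the lower fold, 5 at a fold of 2 and 15 with no floor, which adds genes of low FPKM. Since the depth is unknown and the authors' test statistics were not used, the precision of genes near the floor, such as Snai2, Twist1 and Prrx1, is not given. The value of Msx1 is uncertain for another reason, the locus it shares with Msx1as.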
